A study of Mus musculus with 20 samples.

Results

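Thrombin, the serine protease at the end of the clotting cascade, acts on cells through protease-activated receptors, and 7 genes of this pathway were followed in haematopoietic stem cells (HSC) and in multipotent progenitors (MPP) of the mouse that carried or lacked the leptin receptor (Lepr) on their surface. The 7 genes are the receptors F2r, F2rl2, F2rl3 and F2rl1, the protease precursor F10, the thrombin cofactor Thbd and the thrombin inhibitor Serpine2, out of 55573 genes counted. They were chosen by expression values, because F10 and F2rl2 had been seen to be higher in HSC than in MPP, so every HSC to MPP value of these 7 genes below is a description without a test. The comparison of Lepr+ with Lepr- cells was not used to pick them and is tested, but the Lepr- HSC libraries enter both comparisons. Of the 7 genes, 6 were among the 16509 that passed the filter on low counts, and F2rl1 did not.

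Bone marrow cells came from C57BL/6 mice of 7 to 9 weeks, with no treatment named. Stem cells and progenitors were each sorted into Lepr+ and Lepr- cells, which gave 4 groups of 5 libraries, and each library held RNA of 1000 to 8000 cells pooled from 2 mice. All cells were low in lineage antigens and positive for Sca-1 and c-Kit, HSC being CD150+CD48- and MPP CD150-CD48-, and Lepr status was read with a biotinylated antibody to the receptor. The question was how cells that display the receptor differ from those that do not.

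Factor X, the product of F10, is made as an inactive precursor, and its active form cuts prothrombin (F2) into thrombin with factor V as a cofactor. Protease-activated receptors are G protein-coupled receptors that carry their own ligand: a protease cuts the outer end, and the new end folds back and switches the receptor on. Thrombin cuts PAR1 (F2r), PAR3 (F2rl2) and PAR4 (F2rl3), whereas PAR2 (F2rl1) is opened by trypsin-like proteases and by factor Xa. On mouse platelets PAR3 serves mainly as a docking partner that helps thrombin cut PAR4. Thrombomodulin (Thbd) binds thrombin and turns it to the activation of protein C, which the endothelial protein C receptor (Procr) holds, and in mouse marrow both thrombin and activated protein C act on stem cells through PAR1.

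Libraries held 9532993 to 31589794 counts in genes, and levels are given in CPM, which are counts brought to 1 common library size with edgeR's scaling factors. Slamf1, which encodes CD150, had a mean of 41.3 ± 17.7 CPM in Lepr+ HSC and 46.6 ± 13.3 in Lepr- HSC, against 5.02 ± 3.01 in Lepr+ MPP and 5.11 ± 3.83 in Lepr- MPP (SD, n = 5 here and for all means below). Lepr RNA ran between 0.0758 and 9.35 CPM in Lepr+ HSC libraries and between 0.261 and 38.6 CPM in Lepr+ MPP libraries, and reached at most 0.165 CPM in Lepr- HSC and 0.767 in Lepr- MPP. Libraries of the same replicate number carry the same date in all 4 groups and were read as 1 pool of mice, and these are called pairs below. The labels do not state a shared pool. In 3 libraries (Lepr+ HSC replicate 5 and Lepr+ MPP replicates 4 and 5) the correlation with the rest of the group was lowest.

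F2r, F2rl1 and F2rl2 lie next to each other on chromosome 13 of GRCm38, within 191008 bp, with gaps of 76575 and 78365 bp. F2rl2 (ENSMUSG00000021675.4, chr13:95696853-95702739, plus strand) lies inside Iqgap2, a gene on the other strand, but shares no exon base with it. The other receptors are F2r (ENSMUSG00000048376.6, chr13:95601803-95618487, minus strand), F2rl1 (ENSMUSG00000021678.9, chr13:95511732-95525227, minus strand) and F2rl3 (ENSMUSG00000050147.9, chr8:72761880-72763874, plus strand). F10 (ENSMUSG00000031444.16, chr8:13037308-13056676, plus strand), Thbd (ENSMUSG00000074743.4, chr2:148404466-148408188, minus strand) and Serpine2 (ENSMUSG00000026249.10, chr1:79794197-79861180, minus strand) complete the set.

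Promoters of 5 of the 7 genes were found in the RefSeq table for GRCm38.p6, each running 250 bases before to 50 bases after the RefSeq start. Those of F10, F2rl2, F2r and F2rl3 are shown 5′ to 3′ on the gene's strand. F10, F2rl2 and F2r had higher levels in HSC than in MPP among both Lepr+ and Lepr- cells. Levels of F2rl3 hardly followed cell type. Capitals mark matches, on either strand, to 5 short motifs: AGATAA (the GATA motif), AGGAAG (ETS), TGTGGT (RUNX), CCAAT and TTTGAA (the cell cycle element CHR).
F10 (chr8:13037058-13037357, plus strand): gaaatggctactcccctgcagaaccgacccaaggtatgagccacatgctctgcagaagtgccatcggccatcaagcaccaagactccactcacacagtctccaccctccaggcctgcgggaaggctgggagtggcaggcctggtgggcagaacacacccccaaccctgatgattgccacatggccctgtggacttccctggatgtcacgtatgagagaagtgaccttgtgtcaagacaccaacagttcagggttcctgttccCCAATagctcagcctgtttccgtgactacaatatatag
F2rl2 (chr13:95696670-95696969, plus strand): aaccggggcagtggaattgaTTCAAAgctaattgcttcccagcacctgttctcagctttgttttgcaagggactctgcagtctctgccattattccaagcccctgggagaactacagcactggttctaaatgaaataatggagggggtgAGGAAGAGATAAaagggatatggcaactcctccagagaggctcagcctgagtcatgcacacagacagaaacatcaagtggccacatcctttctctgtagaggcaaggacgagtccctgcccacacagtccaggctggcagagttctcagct
F2r (chr13:95618417-95618716, minus strand): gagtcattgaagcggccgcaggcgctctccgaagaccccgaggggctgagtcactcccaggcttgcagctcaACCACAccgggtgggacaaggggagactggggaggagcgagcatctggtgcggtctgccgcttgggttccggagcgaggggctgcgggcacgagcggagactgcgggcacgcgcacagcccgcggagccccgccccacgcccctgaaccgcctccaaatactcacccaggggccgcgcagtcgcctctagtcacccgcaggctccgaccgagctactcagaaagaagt
F2rl3 (chr8:72761409-72761708, plus strand): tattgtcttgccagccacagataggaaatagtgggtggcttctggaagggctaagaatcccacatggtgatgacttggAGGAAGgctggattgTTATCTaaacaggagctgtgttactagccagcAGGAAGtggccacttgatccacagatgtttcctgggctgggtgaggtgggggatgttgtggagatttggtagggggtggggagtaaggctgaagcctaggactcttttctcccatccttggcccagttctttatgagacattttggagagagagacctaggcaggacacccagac

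The F2rl2 window holds an ETS match at -101 and a GATA match at -95, counted from the start, that touch without overlap, and a CHR match at -230. F2rl3 holds a GATA match at -157 and ETS matches at -172 and -125. F2r holds a RUNX match at -178, and F10 a CCAAT match 12 bases after the start base. Of 32851 promoters of the same length, 11.2% hold the GATA motif, 35.4% ETS, 16.8% RUNX, 37.4% CCAAT and 17.9% CHR. The F2r window has 28 CpG pairs and 68.7% G and C, against 5 pairs and 55.7% in F10, 2 pairs and 50.7% in F2rl2 and 0 pairs and 51.3% in F2rl3, where the median promoter has 7 pairs and 52.7%. The Serpine2 window, not printed, has 41 pairs and 77.7% G and C, with an ETS match at -25. A match describes the letters and does not show that a factor binds there.

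F2rl2, the docking receptor PAR3, was the receptor that differed most between the cell types. Replicates 1 to 5 had 9.36, 54.0, 43.2, 34.2 and 35.2 CPM in Lepr+ HSC, against 61.5, 103.0, 172.2, 142.7 and 107.9 CPM in Lepr- HSC. They had 6.42, 1.72, 4.37, 0.328 and 9.65 CPM in Lepr+ MPP, against 6.39, 5.30, 7.64, 8.08 and 14.7 CPM in Lepr- MPP. Every Lepr- HSC library stood above every Lepr+ HSC library, both HSC groups stood well above MPP apart from Lepr+ HSC replicate 1, and the MPP groups overlapped. The level was higher in HSC than in MPP by 2.97 ± 0.59 on the log2 scale among Lepr+ cells and by 3.80 ± 0.61 among Lepr- cells (fitted SE), which is the difference that chose the genes.

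Between Lepr+ and Lepr- HSC, F2rl2 differed by -1.74 ± 0.56 on the log2 scale and was lower in 5 of 5 pairs. It did not pass over all genes in edgeR's quasi-likelihood test (adjusted p = 0.346, unadjusted p = 0.00573), nor with the replicate number as a block (adjusted p = 0.195) or in DESeq2 (adjusted p = 0.0985). Of all 16509 genes tested in this comparison, 0.103% passed, and 0.618% were lower in Lepr+ HSC with groups that did not overlap, as F2rl2 was. In MPP the difference was -0.90 ± 0.56 (edgeR adjusted p = 1.0), and the test of the difference between the HSC and MPP effects gave an edgeR adjusted p of 1.0 as well. In bulk RNA of this kind, fewer cells of a type and less RNA per cell cannot be told apart. Iqgap2, the gene around F2rl2, had a median of 113.3 CPM in Lepr+ HSC (18.0 to 193.2) and 87.0 CPM in Lepr- HSC (19.0 to 198.2). Its median was 233.3 CPM in Lepr+ MPP (27.8 to 280.0) and 197.4 in Lepr- MPP (35.5 to 230.7). These ranges overlap, and the part of Iqgap2 reads in the F2rl2 level was not tested.

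**Figure D1:**
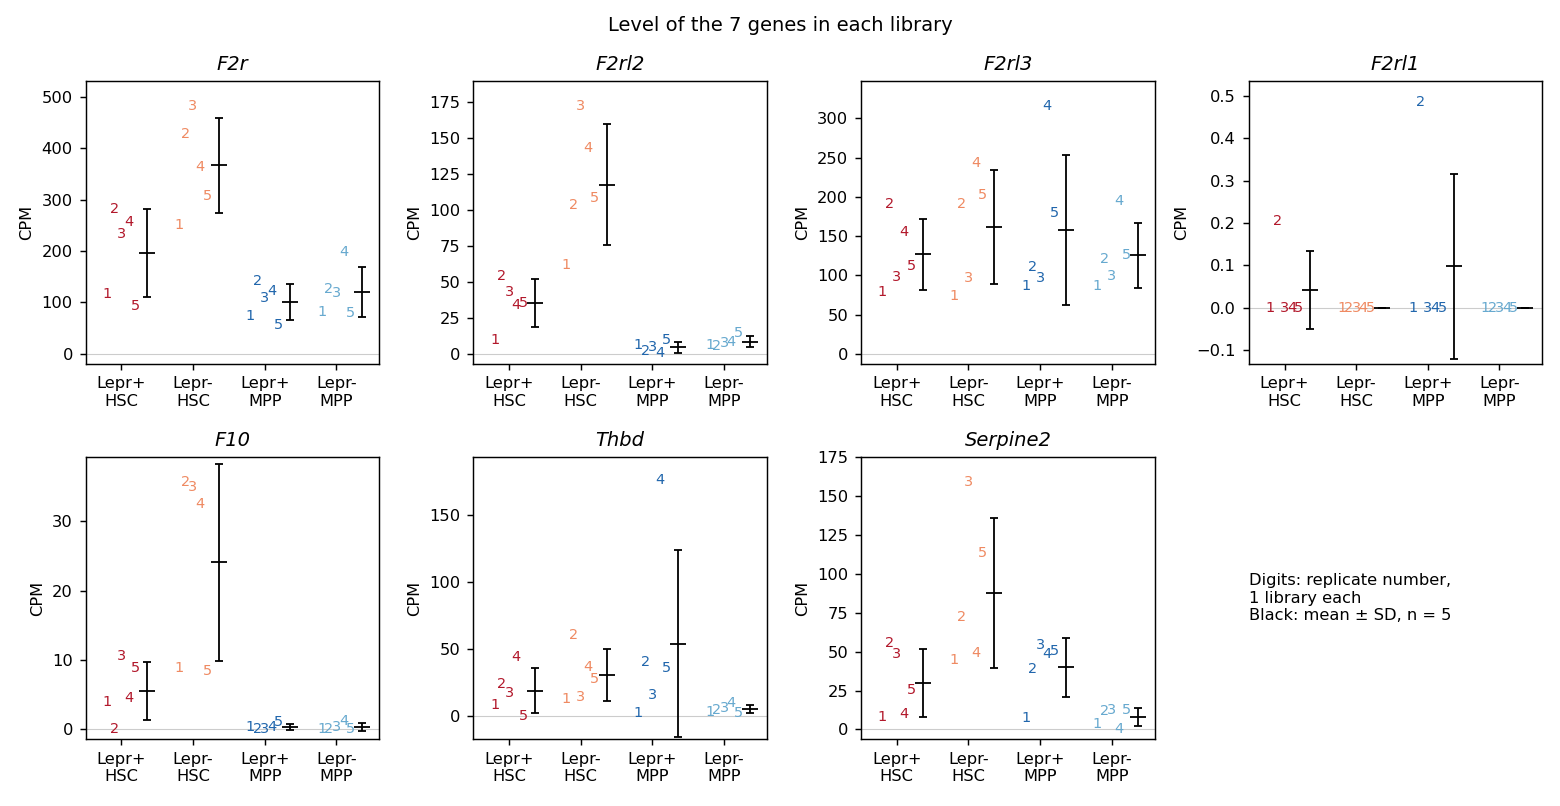
Level of each gene in CPM (vertical axes, linear, one scale per panel) in the 20 libraries, with a digit for each library (its replicate number) and a black mark for the group mean with the SD over 5 libraries. F2r and F2rl2 are highest in Lepr- HSC (means 367 and 117.5 CPM), F2rl3 overlaps across all 4 groups, and Thbd has 1 Lepr+ MPP library at 176.1 CPM.

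F2r, which encodes PAR1, the main thrombin receptor of many cell types, was found in all 20 libraries. Replicates 1 to 5 had 116.6, 281.7, 234.3, 256.2 and 92.5 CPM in Lepr+ HSC, against 251.4, 428.1, 483.1, 364.4 and 307.8 CPM in Lepr- HSC. In MPP they had 74.2, 141.6, 107.9, 123.0 and 56.8 CPM in Lepr+ cells, against 81.9, 125.7, 119.0, 199.0 and 79.2 CPM in Lepr- cells. Within each pair of HSC the Lepr+ library was the lower one, although Lepr+ replicates 2 and 4 lay above Lepr- replicate 1. The MPP groups overlapped throughout.

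The difference between Lepr+ and Lepr- HSC in F2r was -0.90 ± 0.33 on the log2 scale, and it did not pass in edgeR's test over all genes (adjusted p = 0.472) or in DESeq2 (adjusted p = 0.240). With the replicate number as a block it was -1.01 ± 0.17, lower in 5 of 5 pairs, and passed (edgeR adjusted p = 0.00808), as did 1.02% of all genes, 0.26% being lower. That call was lost when replicate number 1, 3 or 5 was left out (edgeR adjusted p = 0.0914, 0.129 and 0.0648), and it was kept without number 2 or 4 (0.0359 and 0.0217) and when the 3 least correlated libraries were dropped (0.0372). In MPP the difference was -0.26 ± 0.33 (edgeR adjusted p = 1.0; 95% interval -0.91 to 0.38). The effects in HSC and MPP were not shown to differ (interaction -0.64 ± 0.46, edgeR adjusted p = 1.0, and 0.666 with the block). Between HSC and MPP, F2r was higher by 0.96 ± 0.33 among Lepr+ cells and by 1.60 ± 0.34 among Lepr- cells.

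The summed level of megakaryocyte markers stood lower beside F2rl2 and F2r in Lepr+ HSC, although single markers differed in both directions. This summed level of 8 markers ran from 1251 to 2728 CPM in Lepr+ HSC, 2400 to 5155 CPM in Lepr- HSC, 552 to 1105 CPM in Lepr+ MPP and 569 to 916 in Lepr- MPP, so that the HSC groups overlapped. Of the 7 markers tested, 0 passed between Lepr+ and Lepr- HSC in edgeR without a block, against 0.103% of all genes. At an unadjusted p under 0.05 there were 5, against 6.96%, and DESeq2 called 3 (2 lower and 1 higher), against 1.15%. Of those 5, Pf4, Itga2b and Itgb3 were lower in Lepr+ HSC. Higher there were Ppbp, a platelet chemokine precursor (2.34 ± 1.00 on the log2 scale), and Tubb1, the platelet tubulin (2.82 ± 0.98). Ppbp ran from 6.99 to 419.2 CPM in Lepr+ HSC libraries and from 8.36 to 38.5 CPM in Lepr- HSC. With the block, Ppbp differed by 1.27 ± 0.64 and Tubb1 by 2.50 ± 0.97 (edgeR adjusted p = 0.473 and 0.300). With the block 2 markers passed, both lower: Pf4, a platelet chemokine, by -1.95 ± 0.28 (adjusted p = 0.00366), and Itga2b, the platelet integrin, by -1.42 ± 0.25 (adjusted p = 0.0113 in edgeR). The Itga2b call was lost without replicate number 1, 3 or 5 (edgeR adjusted p up to 0.0979), and that of Pf4 stood at 0.05 without number 3. Gp6, a platelet collagen receptor, had 873 counts in Lepr+ HSC and 3 in Lepr+ MPP, against 0 counts in both Lepr- groups. The Lepr+ HSC libraries were uneven in Gp6, from 0 to 53.25 CPM (mean 13.1 ± 22.7). The summed level of 7 erythroid markers (0 passed in edgeR, 2 at an unadjusted p under 0.05, 0 in DESeq2) was also lower, with 64.6 to 236 CPM in Lepr+ HSC and 277 to 1167 in Lepr- HSC. Of 9 genes of the stem and progenitor gate, Hlf, a transcription factor of stem cells, rose in Lepr+ HSC (1.08 ± 0.17, edgeR adjusted p = 0.0120), and with the block Ly6a, which encodes Sca-1, and Mecom, another stem cell factor, passed as well (edgeR adjusted p = 0.00314 and 0.0310). The Hlf call was lost without Lepr+ HSC replicate 5 or Lepr- HSC replicate 2 or 3 (edgeR adjusted p up to 0.0517), and that of Mecom without any 1 of the 5 replicate numbers (up to 0.146). Their summed level was 1290 to 1875 CPM in Lepr+ HSC, against 780.7 to 1285 in Lepr- HSC. Of 2 T and NK cell markers tested, Nkg7, a cytotoxic granule gene, was lower with the block (-1.14 ± 0.16, edgeR adjusted p = 0.00366, and 0.0667 without replicate number 3), and the sum of all 6 was 44.8 to 145.6 CPM in Lepr+ HSC, against 95.8 to 229.4 in Lepr- HSC. The part of these marker differences in the receptor levels was not tested.

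**Figure D2:**
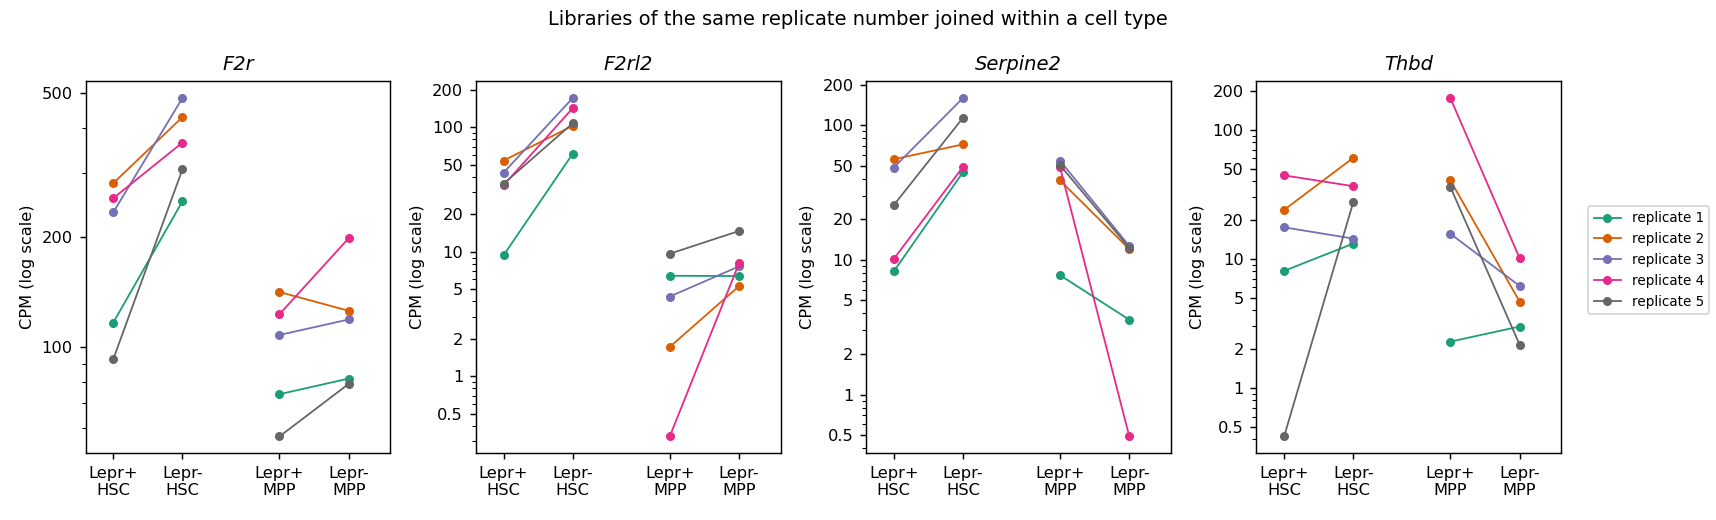
CPM on log axes for F2r, F2rl2, Serpine2 and Thbd, with a line joining the Lepr+ and Lepr- library of each replicate number within HSC and within MPP. All 5 HSC lines of F2r, F2rl2 and Serpine2 run lower on the Lepr+ side, and all 5 MPP lines of Serpine2 run higher there.

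F2rl3, which encodes PAR4, the receptor that carries thrombin signalling in mouse platelets, showed levels of like size in all 4 groups. Replicates 1 to 5 had 78.3, 190.7, 98.3, 155.4 and 111.3 CPM in Lepr+ HSC, against 73.6, 190.4, 96.4, 242.9 and 201.9 CPM in Lepr- HSC. They had 86.7, 110.6, 97.2, 316.0 and 179.7 CPM in Lepr+ MPP, against 86.9, 120.3, 99.1, 194.9 and 125.5 CPM in Lepr- MPP. By replicate number, the 4 libraries of number 3 spanned 96.4 to 99.1 CPM and those of number 1 spanned 73.6 to 86.9 CPM, while those of number 2 spanned 110.6 to 190.7 CPM, number 4 155.4 to 316.0 CPM and number 5 111.3 to 201.9 CPM. The Lepr difference was -0.34 ± 0.38 in HSC (95% interval -1.08 to 0.40) and 0.34 ± 0.38 in MPP, and neither passed (edgeR adjusted p = 1.0 each). The difference of HSC over MPP was -0.32 ± 0.38 among Lepr+ cells and 0.36 ± 0.38 among Lepr- cells.

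F2rl1, which encodes PAR2, had 17 counts in all 20 libraries together. There were 4 counts (0.205 CPM) in Lepr+ HSC replicate 2 and 13 counts (0.486 CPM) in Lepr+ MPP replicate 2, and 0 in the other 18 libraries. A count of 0 allows up to 3 counts, which is 0.0869 to 0.337 CPM depending on the library and covers counting error only. An exact two-sided permutation test between Lepr+ and Lepr- libraries gave p = 1.0 in HSC and in MPP, and no fold is given. With counts in only 1 library of each cell type no other p was possible, so this test cannot decide.

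Per kilobase of exon, F2rl2 had a lower mean than F2r and F2rl3 in each group. The order of F2r and F2rl3 varied with the group. In Lepr+ HSC, F2r had a mean of 58.8 ± 25.7 CPM per kb, F2rl2 14.1 ± 6.60 and F2rl3 63.6 ± 22.9. In Lepr- HSC they had 110.0 ± 27.7, 46.9 ± 16.8 and 80.7 ± 36.4 CPM per kb. F2r and F2rl3 did not differ beyond their spread within either HSC group. In Lepr+ MPP the levels were 30.2 ± 10.5, 1.80 ± 1.49 and 79.1 ± 47.7 CPM per kb, and in Lepr- MPP 36.3 ± 14.5, 3.37 ± 1.47 and 62.8 ± 21 CPM per kb, so that F2rl3 exceeded F2r in each of the 10 MPP libraries. F2rl2 made up a mean of 10.1% of the summed level of the 3 receptors in Lepr+ HSC (4.80 to 14.4%). In Lepr- HSC its mean share was 19.6% (15.5 to 26.3%), in Lepr+ MPP 2.02% and in Lepr- MPP 3.51%. The F2rl2 level is part of this share, so the share is no result apart from the levels above.

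F10, the factor X precursor that hepatocytes make for the plasma, was read at low levels in HSC and near the limit of detection in MPP. Replicates 1 to 5 had 3.99, 0.0513, 10.5, 4.55 and 8.93 CPM in Lepr+ HSC, against 8.83, 35.7, 34.9, 32.5 and 8.40 CPM in Lepr- HSC. They had 0.326, 0, 0, 0.328 and 1.12 CPM in Lepr+ MPP, against 0, 0, 0.377, 1.25 and 0.0721 CPM in Lepr- MPP. Lepr+ HSC replicate 2 rests on 1 count, both Lepr+ and Lepr- HSC groups are uneven, and they overlap, while 4 of the 10 MPP libraries had no count. Summed counts were 610 in Lepr+ HSC and 2298 in Lepr- HSC, against 23 in Lepr+ MPP and 31 in Lepr- MPP.

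The difference of F10 between Lepr+ and Lepr- HSC was -2.10 ± 1.22 on the log2 scale, lower in 4 of 5 pairs, and did not pass in edgeR (adjusted p = 0.880, and 0.473 with the block). In MPP it was -0.04 ± 1.27 (edgeR adjusted p = 1.0; 95% interval -2.53 to 2.44), a range so wide that the sign depended on the setting. The difference of HSC over MPP was 4.12 ± 1.38 among Lepr+ cells and 6.18 ± 1.48 among Lepr- cells (3.74 to 5.19 and 5.84 to 7.59 with 1 library left out). Per kilobase, F10 reached a mean of 2.05 ± 1.53 CPM in Lepr+ HSC and 8.81 ± 5.18 in Lepr- HSC, below F2r, F2rl2 and F2rl3 in the same groups.

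Thbd, the thrombomodulin gene, varied more between libraries than the receptors did. Replicates 1 to 5 had 8.06, 23.9, 17.5, 44.3 and 0.420 CPM in Lepr+ HSC, against 13.1, 60.6, 14.3, 36.5 and 27.6 CPM in Lepr- HSC. They had 2.28, 40.5, 15.6, 176.1 and 36 CPM in Lepr+ MPP, against 2.99, 4.66, 6.16, 10.1 and 2.16 CPM in Lepr- MPP. In MPP 4 of 5 Lepr+ libraries stood above all Lepr- libraries, replicate 1 was the exception and replicate 4 lay far above the rest, while the HSC groups overlapped. The difference in MPP was 3.38 ± 0.96 on the log2 scale, higher in 4 of 5 pairs, and did not pass in edgeR (adjusted p = 0.242, and 0.221 with the block) but passed in DESeq2 (adjusted p = 0.00804). Without Lepr+ MPP replicate 4 it was 2.18 (edgeR adjusted p = 0.731). In HSC it was -0.69 ± 0.88 (edgeR adjusted p = 1.0), and the test of the difference between the 2 effects gave -4.07 ± 1.29 (edgeR adjusted p = 1.0, DESeq2 adjusted p = 0.210). Without Lepr+ MPP replicate 4 the difference between the effects was -2.87. The difference of HSC over MPP was -1.52 ± 0.89 among Lepr+ cells and 2.54 ± 0.93 among Lepr- cells, and the Lepr+ value was -0.33 without Lepr+ MPP replicate 4 and 0.26 without the 3 least correlated libraries.

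Serpine2 encodes protease nexin-1, a serpin that blocks thrombin at cell surfaces, and its Lepr difference pointed opposite ways in HSC and MPP in every pair. Replicates 1 to 5 had 8.22, 55.9, 48.5, 10.2 and 25.5 CPM in Lepr+ HSC, against 44.9, 72.1, 159.4, 49.1 and 113.7 CPM in Lepr- HSC. They had 7.69, 38.9, 54.5, 48.7 and 50.5 CPM in Lepr+ MPP, against 3.59, 12, 12.7, 0.488 and 12.3 CPM in Lepr- MPP. The Lepr+ library was lower in each of 5 pairs of HSC and higher in each of 5 pairs of MPP, and the groups overlapped in HSC and, through replicate 1, in MPP. Genes lower in 5 of 5 HSC pairs made up 8.81% of all tested, and genes higher in 5 of 5 MPP pairs 5.71%.

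In HSC, Serpine2 differed by -1.56 ± 0.69 on the log2 scale (edgeR adjusted p = 0.641, and 0.139 with the block). With the block and without replicate number 4 it passed (edgeR adjusted p = 0.0379), and without any other number it did not (0.160 to 0.489). In MPP it differed by 2.29 ± 0.70 (edgeR adjusted p = 0.327, 0.0802 with the block, and 0.0438 in DESeq2). The difference between the 2 effects was -3.85 ± 0.98, with an unadjusted p of 0.000866 and an adjusted p of 0.886 in edgeR, 0.204 with the block and 0.0371 in DESeq2. Over all genes, edgeR called 0.0% for this difference, with 529 genes (3.2%) at an unadjusted p under 0.05, and DESeq2 called 31 genes (0.16%). The difference of HSC over MPP in Serpine2 was -0.43 ± 0.67 among Lepr+ cells and 3.42 ± 0.74 among Lepr- cells. Serpine2 has 6 annotated transcripts, and its level per kilobase depended on which exons were taken: in Lepr- HSC it was 10.6 CPM per kb over all exons and 25.9 CPM per kb over those of the longest transcript.

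**Figure D3:**
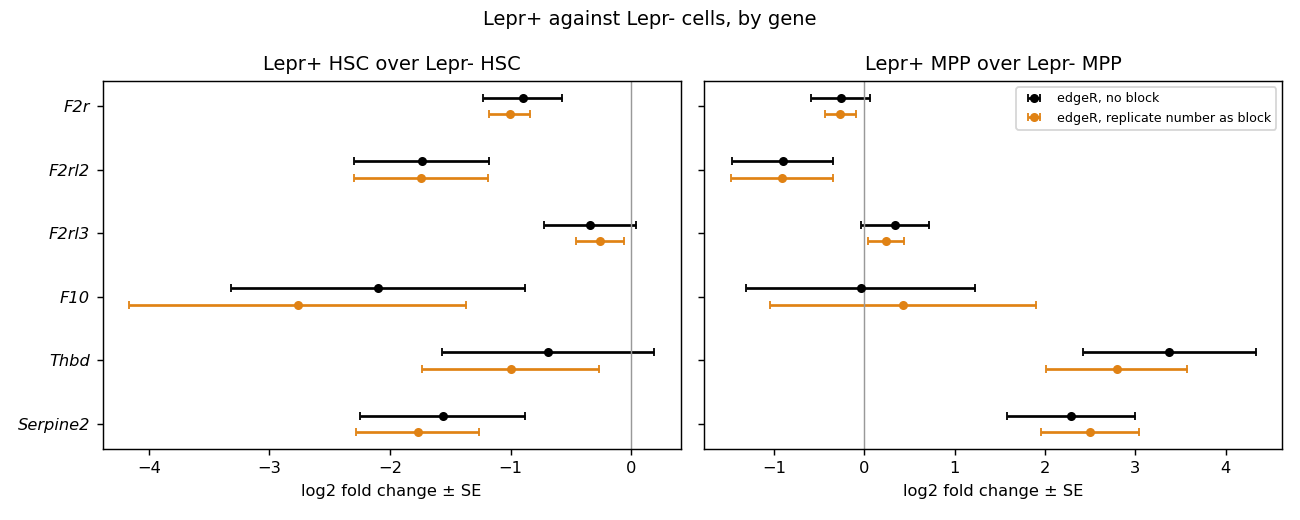
Log2 fold change of Lepr+ over Lepr- cells (horizontal axes) for the 6 tested genes in HSC (left) and MPP (right), with bars of 1 SE, from the edgeR fit without a block (black) and with the replicate number as a block (orange). In HSC 6 of 6 estimates lie below 0, and in MPP those of Thbd (3.38), Serpine2 (2.29) and F2rl3 (0.34) lie above it in both fits, while that of F10 changes sign (-0.04, and 0.43 with the block).

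Taking the 6 tested genes, 0 passed between Lepr+ and Lepr- HSC in edgeR without a block, against 0.103% of all genes, and 0 between Lepr+ and Lepr- MPP, against 0.2%. At an unadjusted p under 0.05 there were 3 in HSC (F2rl2, F2r and Serpine2), where 6.96% of all genes reached it, and 2 in MPP (Thbd and Serpine2), where 4.41% did. High Lepr- HSC values raise HSC over MPP, the basis of the choice, and lower Lepr+ against Lepr- HSC. The HSC count is therefore not independent of the choice and cannot be read as an excess over all genes. DESeq2 called 0 of the 6 in HSC and 2 in MPP, against 1.15% and 1.31% of all genes. A p that misses the threshold does not show that levels did not differ, and at 5 libraries a group with a biological coefficient of variation of 0.747 the precision was low.

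Stromal and endothelial markers stood higher beside Thbd and Serpine2 in Lepr+ MPP. The summed level of 10 stromal markers was 140.9 to 3229 CPM in Lepr+ MPP, against 45.8 to 75.3 in Lepr- MPP, where Adipoq and Pdgfra were at 0, and 5 of 10 rose (Cxcl12, Adipoq, Col1a2, Col3a1 and Dcn). The summed level of 10 endothelial markers was 497 to 1002 CPM in Lepr+ MPP, against 358 to 485 in Lepr- MPP, and 4 of 10 rose (Cdh5, Fabp4, Aplnr and Sox18). The genes named from both lists passed in edgeR at an adjusted p under 0.05, as did 0.2% of all genes. With the block 2 of each list passed, against 0.103% of all genes, and without the 3 least correlated libraries 0 genes did. Of 10 fits that left out 1 MPP library, the call of Fabp4 was kept in 10, that of Aplnr in 7 and the others in 1 to 3. Lepr+ MPP replicate 4, the highest for Thbd, was also the highest for the endothelial sum, at 1002 CPM, and replicate 5 the highest for the stromal sum, at 3229 CPM. The sum of 6 B cell markers was 66.8 to 4444 CPM in Lepr+ MPP, against 56.4 to 85.7 in Lepr- MPP. In HSC the stromal sum was 39.1 to 185 CPM in Lepr+ cells and 16.2 to 210 in Lepr- cells, and the endothelial sum 569 to 745 CPM and 455.3 to 625.4 CPM. The erythroid sum was lower, with 18.0 to 196 CPM in Lepr+ MPP against 150.3 to 826.8 in Lepr- MPP, and 1 of 7 erythroid markers fell, the transcription factor Gata1 (-3.14 ± 0.63, edgeR adjusted p = 0.0433), a call lost with the block (0.0612) and without any 1 of the 10 MPP libraries (up to 0.138). Thrombomodulin is best known from endothelium, and the part of these marker differences in the Thbd and Serpine2 levels was not tested.

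**Figure D4:**
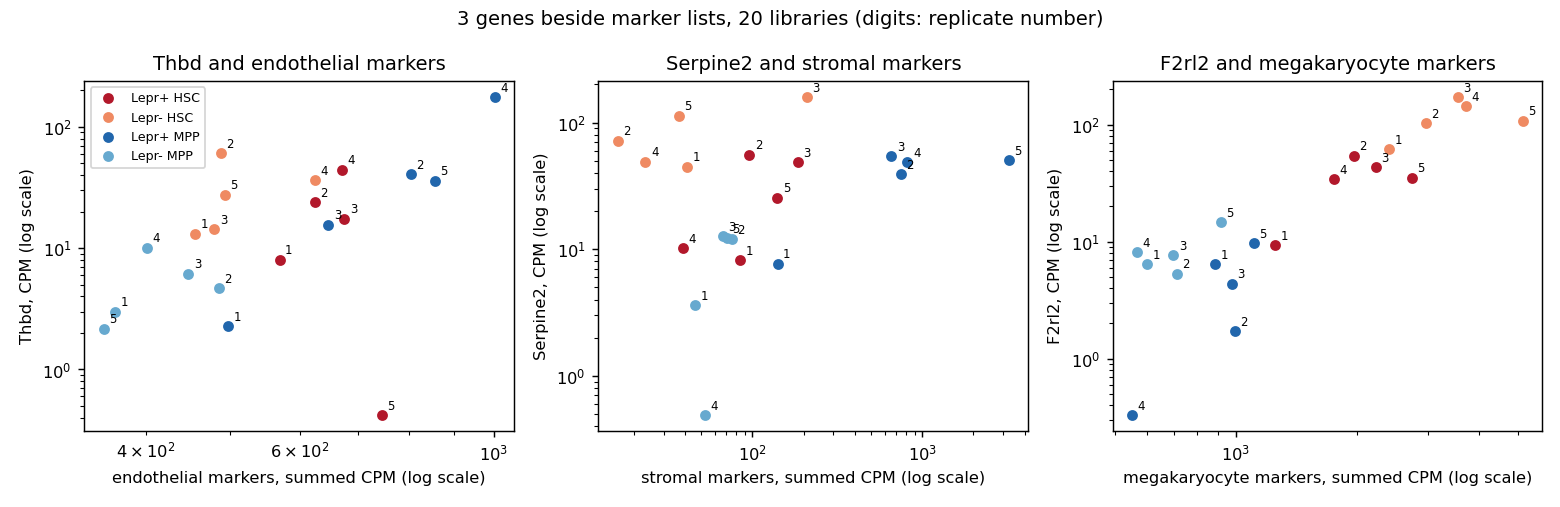
CPM of Thbd, Serpine2 and F2rl2 (vertical axes, log scale) against the summed CPM of endothelial, stromal and megakaryocyte markers (horizontal axes, log scale), with 1 point per library, its replicate number beside it and its colour for the group. Lepr+ MPP replicate 4 is highest for Thbd and for the endothelial sum (1002 CPM), and Lepr+ MPP lie right of Lepr- MPP for the stromal sum (140.9 to 3229 against 45.8 to 75.3 CPM).

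Of 82 other genes of clotting, fibrinolysis and receptor signalling, 54 were tested, and 1 rose in Lepr+ HSC while none fell, which is 1.85% against 0.103% of all genes. The median log2 fold change of the 54 was 0.15, beside -0.00413 over all genes. It was Procr, the receptor that presents protein C to thrombin bound by thrombomodulin, which averaged 99.1 ± 27.3 CPM in Lepr+ HSC and 30.9 ± 11 in Lepr- HSC (1.68 ± 0.26 on the log2 scale, edgeR adjusted p = 0.0120, and 0.00366 with the block). The call was lost without Lepr+ HSC replicate 5 or Lepr- HSC replicate 2, 3 or 5 (adjusted p up to 0.0634 in edgeR), and kept in the other 6 fits that left out a library of HSC and in that without the 3 least correlated libraries (0.0450). In MPP it averaged 93.7 ± 21.7 CPM in Lepr+ cells and 46.0 ± 9.83 in Lepr- cells (1.03 ± 0.26, edgeR adjusted p = 0.136). Gp5, a platelet surface protein that thrombin cleaves, averaged 145.3 ± 69.8 CPM in Lepr+ HSC and 295.1 ± 131.9 in Lepr- HSC, and passed with the block (-1.07 ± 0.23, edgeR adjusted p = 0.0389; 0.644 without it). That call was kept without replicate number 5 and lost without any of the other 4 (adjusted p up to 0.223 with edgeR). Protein C itself (Proc) had 0 counts in all 20 libraries, as had F7, F11, Fga, Fgg, Serpina5, Plg and Cpb2.

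In MPP 2 of the 54 genes rose in Lepr+ cells, which is 3.70% against 0.2% of all genes, and none fell. The median of the 54 was 0.16, beside 0.01 over all genes. Tfpi, the inhibitor that stops factor Xa and the tissue factor complex, averaged 102.0 ± 53.2 CPM in Lepr+ MPP and 35.6 ± 3.94 in Lepr- MPP (1.52 ± 0.31, edgeR adjusted p = 0.0433). Serping1, the inhibitor of complement C1 and contact factors, averaged 43.0 ± 31 CPM in Lepr+ MPP and 0.135 ± 0.208 in Lepr- MPP (8.21 ± 1.58, edgeR adjusted p = 0.0384). With the block neither passed (edgeR adjusted p = 0.0525 and 0.05), nor did they without the 3 least correlated libraries (0.428 and 0.0966). Of 10 fits that left out 1 MPP library, the Tfpi call was kept without Lepr+ MPP replicate 1 or 3, and that of Serping1 without replicate 1 of that group. The stromal and endothelial sums above were also higher in Lepr+ MPP, and their part in these levels was not tested.

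F2, the gene of prothrombin, had means of 0.914 ± 0.758 CPM in Lepr+ HSC, 1.5 ± 1.54 in Lepr- HSC, 0 in Lepr+ MPP and 0.767 ± 1.71 in Lepr- MPP. F3, which encodes tissue factor, the trigger of clotting, had 43 counts in Lepr+ HSC, 0 in Lepr- HSC, 30 in Lepr+ MPP and 13 in Lepr- MPP. F5, whose product is the cofactor of factor Xa, averaged 13.6 ± 13.1 CPM in Lepr+ HSC and 14.6 ± 15 in Lepr- HSC, against 4.17 ± 3.37 in Lepr+ MPP and 2.98 ± 2.73 in Lepr- MPP. Prothrombin RNA was thus read at low levels, with 114 counts in Lepr+ HSC and 190 in Lepr- HSC, while F5 was read in HSC at levels that varied widely.

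Between HSC and MPP, more genes of these lists passed. Among Lepr- cells 5 of the 54 were higher and 2 lower in HSC, 13% against 2.73% of all genes tested, and among Lepr+ cells 2 were higher and 1 lower, 5.56% against 0.466%. Vwf, the adhesive protein that carries factor VIII, was higher in both: it averaged 279.8 ± 113.8 CPM in Lepr+ HSC against 20.3 ± 3.70 in Lepr+ MPP (3.79 ± 0.52, edgeR adjusted p = 0.00186), and 454.1 ± 197.9 CPM in Lepr- HSC against 12.9 ± 9.54 in Lepr- MPP (5.14 ± 0.55, edgeR adjusted p = 2.66e-05). Gp5 was higher in both as well (2.35 ± 0.47 among Lepr+ and 2.88 ± 0.48 among Lepr- cells, edgeR adjusted p = 0.0235 and 0.00138), and Gp9, its partner in the platelet receptor for Vwf, passed among Lepr- cells (2.18 ± 0.35, edgeR adjusted p = 0.00110). Pros1, the protein C cofactor protein S, had 35.6 ± 12.7 CPM in Lepr- HSC and 11.3 ± 3.17 in Lepr- MPP (1.66 ± 0.31, edgeR adjusted p = 0.00391). Anxa2, which gathers plasminogen on the cell surface, was lower in HSC in both (-1.30 ± 0.26 among Lepr+ and -1.70 ± 0.27 among Lepr- cells, edgeR adjusted p = 0.0268 and 0.000937), and the protease Ctss was lower among Lepr- cells (-2.46 ± 0.47, edgeR adjusted p = 0.00494). Among Lepr+ cells the calls of Gp5 and Anxa2 were lost without the 3 least correlated libraries (edgeR adjusted p = 0.0884 and 0.0706), and each was also lost without replicate 2, 4 or 5 of the HSC or replicate 2, 3 or 5 of the MPP, and that of Gp5 without replicate 1 of the MPP.

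The G proteins and effectors through which the receptors signal (alpha subunits, phospholipases, exchange factors, kinases and arrestins) were read in all groups. Of 22 such genes 0 passed between Lepr+ and Lepr- cells in HSC or in MPP, in edgeR with or without the block and in DESeq2, with 1 at an unadjusted edgeR p under 0.05 in each. Their median log2 fold changes were 0.00 in HSC and 0.04 in MPP, beside -0.00413 and 0.01 over all genes. Gnaq averaged 49.6 ± 12 CPM in Lepr+ HSC and 43.0 ± 10.6 in Lepr- HSC. Gna13 averaged 96.7 ± 25.7 CPM in Lepr+ HSC and 106.2 ± 40.4 in Lepr- HSC, and Gna15, a blood cell member of the Gq family, 89.3 ± 26.3 and 86.6 ± 11.7 CPM in the same groups. Gnai2 was the most abundant, with 566.5 ± 109.9 CPM in Lepr+ HSC and 545.2 ± 87.0 in Lepr- HSC, followed by Rhoa, Gnai3 and Arhgef1. Gnaz, a Gi member found in platelets, was the 1 of 22 higher in Lepr- HSC than in Lepr- MPP (1.72 ± 0.41, edgeR adjusted p = 0.0218), with 27.8 ± 11 CPM against 8.45 ± 2.59 CPM. That call was lost without Lepr- HSC replicate 3 or Lepr- MPP replicate 1, 4 or 5 (edgeR adjusted p up to 0.0805).

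The remaining lists held no gene that passed between Lepr+ and Lepr- cells in edgeR, with or without the block. At an unadjusted p under 0.05 there were 2 of the receptor-cutting proteases in HSC and 1 in MPP, and DESeq2 called 2 of these proteases in MPP. Of the 6 coagulation factors tested, 1 reached that p in HSC and 2 in MPP, and DESeq2 called 1 in MPP, higher in Lepr+ cells. Over all genes, 6.96% reached it in HSC and 4.41% in MPP, and DESeq2 called 1.31% in MPP. Genes of the vitamin K cycle and of factor secretion, which the liver uses to finish factor X, were all 6 tested, led by Mcfd2 and Lman1, which carry factors V and VIII out of the endoplasmic reticulum, and by Furin and Vkorc1l1. Mcfd2 averaged 145.4 ± 19.8 CPM in Lepr+ HSC and 117.3 ± 17.2 in Lepr- HSC. Of 9 fibrinolysis genes 3 were tested, led by S100a10, the partner of Anxa2, with 244.2 ± 149.2 CPM in Lepr+ HSC and 206.0 ± 97.1 in Lepr- HSC. Among 11 other proteases that can cut the receptors 6 were tested, and Prtn3, a neutrophil granule protease, was the most abundant, with 200.9 ± 105.2 CPM in Lepr+ HSC and 116.7 ± 51.6 in Lepr- HSC.

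The genes whose levels over the 20 libraries were most like those of F2rl2, among 10746 compared by Pearson's r of log2 CPM, were Kpna2 (0.954), Ube2c (0.943), Asf1b (0.937), Ccnb1 (0.936) and Cenpm (0.927). Kpna2, a nuclear import adaptor, had 118.6 CPM in Lepr+ HSC, 203.7 in Lepr- HSC, 40.6 in Lepr+ MPP and 62.3 in Lepr- MPP, on average. Ube2c, which loads ubiquitin for the anaphase-promoting complex, had 69.3, 124.3, 23.3 and 29.5 CPM in the same groups, and Ccnb1, a mitotic cyclin, 108.3, 178.3, 42.4 and 67.7 CPM. With each group's mean taken away, r for the 5 genes ran from 0.673 (Asf1b) to 0.796 (Cenpm). These are descriptions over libraries that share 4 groups, 5 replicate numbers and their depths.

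For F10 the most like genes were Aurkb (0.895), a kinase of chromosome segregation, Spc24 (0.866), Pbk (0.855), Mad2l1 (0.854) and Tacc3 (0.852). Aurkb averaged 103.8 CPM in Lepr+ HSC, 156.9 in Lepr- HSC, 37.2 in Lepr+ MPP and 32.9 in Lepr- MPP, and with group means taken away r ran from 0.332 (Tacc3) to 0.588 (Aurkb). F10 and F2rl2 themselves correlated at 0.749 over the 20 libraries and at 0.0721 with group means taken away. Likewise F2r and F2rl2 correlated at 0.698 and at -0.105. With group means taken away, the closest of the 15 pairs among the 6 genes past the filter were F2r with Thbd (0.669) and F2rl3 with Thbd (0.612).

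**Figure D5:**
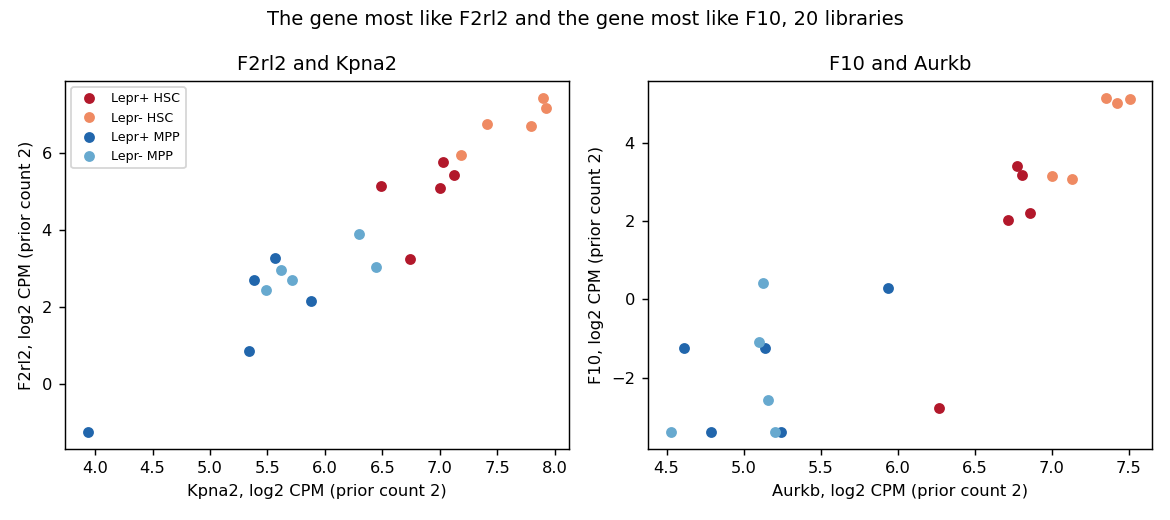
Log2 CPM of F2rl2 against Kpna2 and of F10 against Aurkb over the 20 libraries, with 1 point per library coloured by group. Libraries of Lepr- HSC lie at the upper right and MPP libraries at the lower left in both panels (r = 0.954 and 0.895).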

How the data were processed

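RNA was measured in 20 libraries of sorted bone marrow cells, 5 in each of 4 groups. The deposited values are raw counts per gene, 1 table per library. Per the submitters' processing notes, the authors worked on GRCm38 with STAR 2.7.1a and HTSeq 0.11.2, and also with FastQC 0.11.8, cutadapt 2.1 and DESeq2. Per the labels' protocols, cDNA came from a SMART-Seq v4 kit and libraries from Nextera XT without strand information, although 1 label describes the RNA as depleted of rRNA. How HTSeq treated overlaps, and what was merged in the deposited tables, is not given in the sources used here. Counts assigned to no gene, 21.4 to 38.7% of a library's total, were left out. Without strand, reads from a gene and from one on the other strand cannot be told apart, which touches F2rl2 and Iqgap2.

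Of 55573 gene identifiers, 55480 matched GENCODE M21, 55180 of them with the same version. Tests were quasi-likelihood F tests in edgeR 4.0.16 (R 4.3.3) on all 20 libraries with group as the only term, TMM scaling and filterByExpr (count of at least 10, total of at least 15). They are two-sided, adjusted by Benjamini-Hochberg over 16509 genes with a threshold of 0.05. Levels per length used all annotated exons. F2rl1, under the filter, was put to exact permutation over libraries, which could not tell its groups apart at so few counts. Floors (3 counts) of low values cover counting error only. Intervals of log2 differences are the estimate ± 1.96 times its fitted SE, and that SE includes the spread between libraries. The p-values of the main fit and of DESeq2 rest on the spread between libraries of a group, taken as independent. Those of the block fit rest on the spread left within replicate numbers.

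Replicate numbers carry 1 date each, in June or July, in all 4 groups, and were read as pools of 2 mice, which is where the pairing comes from. The labels do not state that the groups share a pool. Deviations from group means had a median r of 0.264 over the 30 library pairs that share a number (-0.0647 to 0.562) and of -0.0858 over the 120 that do not. A fit with the number as a block was therefore run beside the main one. The pairing was uneven: the lowest r was -0.0647 in number 2 and 0.0374 in number 5. Of the 20 libraries, 14 were closest to their own number.

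The 7 genes, the other lists and the tests were chosen with earlier results of these data known. The other genes named were those of each pathway list past 0.05 in a Lepr comparison or otherwise up to 4 of the highest mean, a fixed set of key factors, and the 5 genes most like F10 and F2rl2 by Pearson correlation of log2 CPM (prior count 2) if at least 1 group averaged 5 CPM or more. Genes past 0.05 only between HSC and MPP, and single marker genes, were named after their values were seen, as were the promoter motifs chosen. Alternatives were DESeq2 1.42.0, its scaling, no low-count filter, the block, the compared groups alone, each month alone, and left-out libraries. The block with left-out libraries or numbers was chosen after seeing the data. On simulated counts with 100 changed genes of each size, edgeR recovered 93% of log2 changes of 4 and 3% of those of 2 in HSC, and 81% and 8% in MPP. In the measured libraries, edgeR called some log2 changes below 2: Hlf (1.08 ± 0.17) and Procr (1.68 ± 0.26) in HSC, and Tfpi (1.52 ± 0.31) in MPP. How far the percentages hold for any single gene was not tested.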

Additional observations from a re-analysis of the deposited data

Results flagged for a closer look

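Of 26 groups of 5 libraries examined, 3 held a library far from the other 4. The nominal rate of this flag is about 5%. A group with 0 in 4 libraries and counts in the other is always flagged, as for F2rl1 here, so the number of flags shows no excess. F2rl1 had 0.205 CPM in Lepr+ HSC replicate 2 and 0.486 CPM in Lepr+ MPP replicate 2, with 0 counts in every other library, so these rest on 4 and 13 counts. Thbd had 176.1 CPM in Lepr+ MPP replicate 4, against 2.28 to 40.5 CPM in the other 4 Lepr+ MPP libraries. That library also had the highest summed level of endothelial markers (1002 CPM), whose part was not tested.

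Serpine2 was lower in Lepr+ than in Lepr- HSC in 5 of 5 pairs and higher in Lepr+ than in Lepr- MPP in 5 of 5 pairs. The difference between these effects was -3.85 on the log2 scale and did not pass in edgeR (adjusted p = 0.886, and 0.204 with the replicate number as a block), while DESeq2 called it (adjusted p = 0.0371).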

How the results depend on the processing

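Most values of the 6 tested genes kept their sign and side of the threshold; counts of calls did not. Between Lepr+ and Lepr- HSC, 17 genes passed in the main test, 197 in DESeq2, 169 with the replicate block, 8 without the 3 libraries least like their groups, 143 with the block and without these, and 0 with the compared groups alone, in June or in July (731, 1031 and 426 at an unadjusted p under 0.05). Leaving out 1 library gave 0 to 24 (0 without Lepr+ HSC replicate 5 or Lepr- HSC replicate 2 or 3), and under the block 72, 80, 23, 88 and 68 without replicate number 1 to 5. Between Lepr+ and Lepr- MPP, 33 passed in the main test, 247 in DESeq2, 17 with the replicate block, 16 with the compared groups alone, 2 with the block and without the 3 libraries, and 0 without the 3 libraries, in June or in July (793, 556 and 367 at an unadjusted p under 0.05). Leaving out 1 library gave 4 to 49, and under the block 11, 0, 3, 9 and 3 without number 1 to 5. For the difference between the effects, 0 passed (529 unadjusted) and 31 in DESeq2. Between HSC and MPP of Lepr+ cells, 77 passed, 371 in DESeq2, 293 with the block, 4 with the compared groups alone, and 0 in June or in July (822 and 839 unadjusted), with 28 to 94 when 1 library was left out. Of Lepr- cells, 451 passed, 879 in DESeq2, 1238 with the block, 768 without the 3 libraries, 81 in June and 0 in July (798 unadjusted), with 301 to 462 when 1 library was left out.

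Some signs turned. F10 in MPP was -0.04, but 0.042 in DESeq2, 0.43 with the block and 1.34 in June, -1.11 to 1.36 with 1 library left out and, under the block, 0.63, 1.07 and 1.62 without number 2, 3 and 4. F2rl3 in MPP was -0.35 without the 3 libraries, -0.017 with the block as well, and -0.080 to 0.55 with 1 library left out. The difference between the effects was -0.83 for F2rl2, but 1.16 in July, and -0.68 for F2rl3, but 0.050 without the 3 libraries. The mean F2rl1 difference was 0 to 0.0513 CPM in HSC and 0 to 0.122 CPM in MPP with 1 library left out. Over the longest transcript, Serpine2 had 8.74 CPM per kb in Lepr+ HSC against 25.9 in Lepr- HSC, and 11.8 in Lepr+ MPP against 2.42 in Lepr- MPP. The cause of these shifts was not tested, apart from the fewer samples in left-out and single-month fits. The block changed 1 call among the 6 genes, that of F2r in HSC. Depth limits F2rl1 and, in MPP, F10.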
